A study of Sus scrofa with 36 samples.

Results

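Pre-mRNA splicing removes introns in the spliceosome, a machine built on small nuclear ribonucleoprotein particles (snRNPs) whose RNAs sit in rings of Sm or Sm-like (LSM) proteins. SR proteins and heterogeneous nuclear ribonucleoproteins (hnRNPs) bind the pre-mRNA and steer the choice of splice sites, DEAD-box (DDX) and DEAH-box (DHX) helicases drive the steps between spliceosome states or act on RNA elsewhere in the cell, and proteins of the RBM, CELF and PABP families bind pre-mRNA or mRNA. In the heart, the splicing of sarcomere and calcium-handling transcripts changes after birth, and back-splicing, which joins the end of an exon to an upstream exon, makes circular RNAs.

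Genes of this machinery were read from the gene counts of neonatal pig hearts. They were the protein-coding rows whose symbol began with HNRNP, SRSF, RBM, DDX, DHX, SF3, SNRP, PRPF, CELF, RBFOX, LSM or PABP and which reached 10 counts or more in 3 libraries or more. The rule used no measured values apart from that count minimum, but it was chosen with earlier results of these data known. The 12 prefixes named 48 of the 9815 rows, and 45 genes passed. RBM11, PABPN1L and CELF5 did not pass, with at most 5 counts in any library. The rows used here lie on chromosomes 1, 2, 6 and 13, so RBM20, RBM24, RBFOX1, RBFOX2, PABPC1 and many core spliceosome genes were not analysed here. A shared prefix does not make a shared function. LSMEM2, a leucine-rich single-pass membrane protein, was taken in by the letters LSM only, is not an RNA-binding protein and is described apart from the others.

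The hearts came from domestic Yorkshire pigs at postnatal days 1, 3, 7 and 28 (P1, P3, P7 and P28), fed normally and otherwise untreated. The paper gives both sexes at each age over all batches, and the sex of the pigs used here is not given in the sources used. Total RNA of 3 pigs per age, depleted of ribosomal RNA, was sequenced by CD Genomics (batch cd). Each age thus had 3 libraries, one from each of 3 pigs, named here by the numbers 4, 5 and 6 of their columns. Levels are given as CPM, counts per 1000000 counts of the library total after TMM scaling, which evens out differences in library composition. Library totals ranged from 8887176 to 14883849 counts, and 5526 rows passed the count minimum. The tissue was whole heart. Of the marker genes looked for, 8 of 21 cardiomyocyte genes were measured and their summed level was 72763 to 102785 CPM, while 1 of 9 erythroid genes (EPB42) was measured and stayed at 0.562 to 8.74 CPM. The summed level of 6 leukocyte genes was 748 to 1225 CPM at P28 and 423 to 676 CPM earlier, and that of the 2 fibroblast genes measured, TCF21 and FBLN2, was 189 to 232 CPM at P28 and 255 to 414 CPM earlier. For 4 immediate early genes, which respond to stress and tissue handling, it was 671 to 933 CPM at P28 and 194 to 466 earlier. Most of this was JUN, whose row a gene name table assigned, with a mean of 676 CPM at P28 and 230 to 284 earlier. For 4 endothelial genes the summed level was 593 to 829 CPM over the 12 libraries. Rows of the signal recognition particle RNA (Metazoa_SRP) took 7.09% to 19.7% of the counts. What part these shifts have in the differences that follow was not tested.

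Library 5 of P3 stood apart from the others. It had the lowest total, and it held the lowest value of 15 of the 45 genes and the highest of 7, where 22.7% of all rows had their lowest and 22.2% their highest value in it. The summed level of the 2 smooth muscle and pericyte genes measured, PDGFRB and NOTCH3, was 1185 CPM in it and 209 to 565 CPM in the other 11. Counts that changed without it are given with and without it. In the plot of all genes and libraries its column runs against its neighbours for SRSF10, LSM3, SNRPD1 and DHX34.

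**Figure D1:**
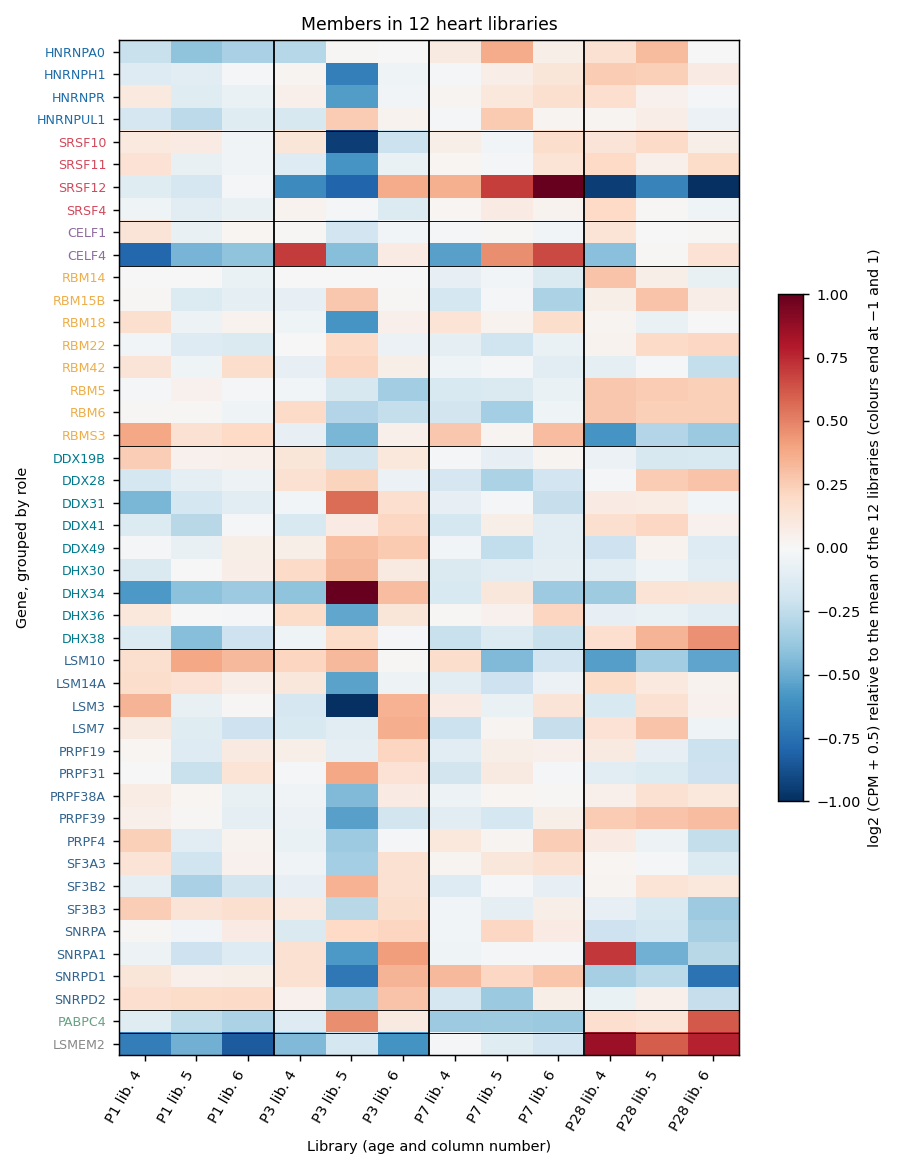
Level of each of the 45 genes (rows, grouped by role) in each of the 12 libraries (columns, age and column number), as log2 (CPM + 0.5) relative to the mean over the libraries, with colours that end at 1 in either direction. Most cells are pale, LSMEM2 is dark red in the 3 P28 libraries, SRSF12 is blue in them, and library 5 of P3 differs from its neighbours in many rows.

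Most splicing and RNA-binding genes kept a similar level from P1 to P28. For 37 of the 45 genes (82.2%) the highest age mean was under 1.5 times the lowest, against 51.2% of all rows tested and 55.3% of the protein-coding rows. The median ratio was 1.26, against 1.49 over all rows. PRPF19 and CELF1 ranged least, with a ratio of 1.09 each, and SRSF12 most, with 4.34. The genes were also measured with less error than most, with a median standard error (SE) of the log2 fold change between P1 and P28 of 0.14 against 0.217 over all rows. P28 was the age with the highest mean for 19 of the 45 genes (42.2%), against 32.3% of all rows, and the lowest for 11 (24.4%), against 33.7% of all rows. These shares describe the genes and were not tested.

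Compared per kilobase of transcript, the levels covered a range from 199 CPM per kilobase for PABPC4 to 0.166 for CELF4. HNRNPH1 (194), HNRNPUL1 (151), SNRPD2 (108), SRSF11 (98.0) and SF3B3 (85.5) followed PABPC4 in the mean over the 12 libraries. Only SRSF12 and CELF4 lay under 3 CPM per kilobase. CELF4, a CELF family protein best known from neurons, had 1 to 13 counts in a library, so that its values are set by few reads.

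**Figure D2:**
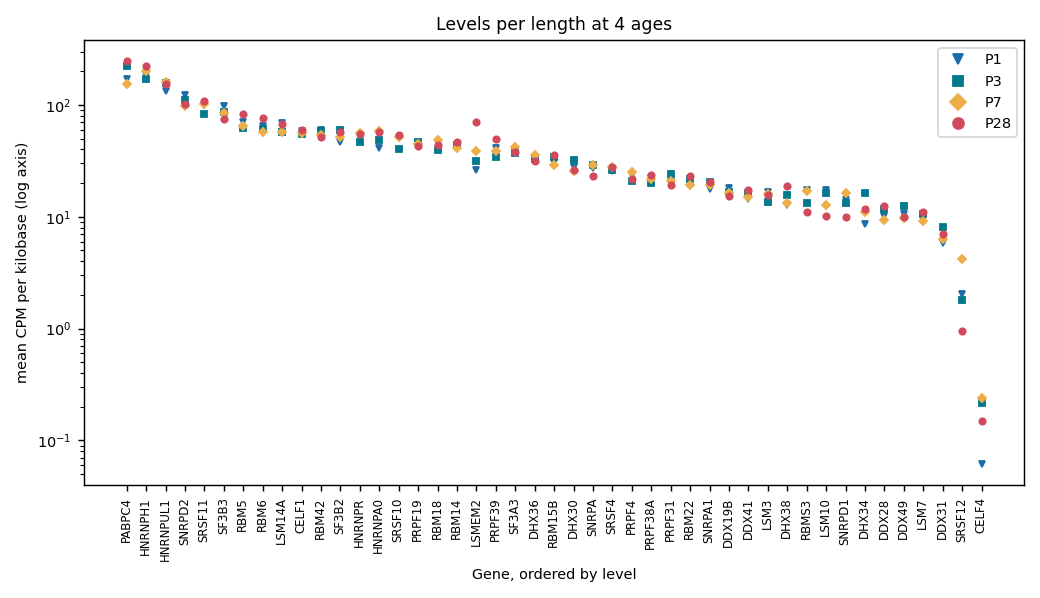
Mean level per kilobase of transcript at each age (log axis, CPM per kilobase, 3 libraries per age) for the 45 genes in order of their mean over the 12 libraries. The 4 ages lie close together for most genes, and SRSF12 and CELF4 lie apart at the low end.

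Among the 4 ages, 9 of the 45 genes differed (20%, Benjamini-Hochberg adjusted p under 0.05 in edgeR's quasi-likelihood F test), where 21.4% of all rows did, so the share is near the background. They were LSMEM2, SRSF12, DHX38, RBMS3, PABPC4, LSM10, RBM5, HNRNPA0 and PRPF39. Without LSMEM2 the counts were 8 of 44 here, 5 of 44 between P1 and P28 (background 15.3%) and 7 of 44 between P7 and P28 (background 18.8%). Whole heart was sequenced, so that fewer cells of a type and less RNA per cell cannot be told apart in any of the differences that follow. The count depended on single libraries. It was 1 without library 6 of P28 (background 13.0%), and 4 without library 4 (14.3%) or 5 (13.7%) of P28, library 6 of P7 (16.7%) or library 6 of P1 (16.1%). It was 5 without library 5 of P1 (17.4%) or without library 4 (16.1%) or 5 (15.1%) of P7, and 11 without library 5 of P3 (30.9%). LSMEM2 was called in all 12 of these fits, SRSF12, RBMS3 and DHX38 in 10 each, and HNRNPA0 and PRPF39 in 2.

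Steps within the first week gave no call in the fit of all 12 libraries. Between P1 and P3, 0 of the 45 genes passed edgeR's test, and 0.0543% of all rows did. Between P3 and P7 (background 2.21%) and between P1 and P7 (background 2.01%), 0 passed as well. At an unadjusted p under 0.05 lay 7 of the 45 genes between P1 and P3 (15.6%, against 15.2% of all rows), 6 between P3 and P7 (13.3%, against 18.9%) and 6 between P1 and P7 (13.3%, against 16.1%). Without library 5 of P3, HNRNPA0 and LSMEM2 were called between P1 and P7 (2 genes, both higher at P7, background 5.95%), and they were also called when only these ages were fitted (background 6.58%). Between P3 and P7, PABPC4 was called without library 4 of P3 (background 4.47%) and SRSF12 without library 6 of P3 (background 4.08%). DESeq2 called 0 genes between P1 and P3 (its background 2.21%), 1 between P3 and P7 (DHX30, 7%) and 2 between P1 and P7 (HNRNPA0 and LSMEM2, 6.59%). The smallest adjusted p values of edgeR's quasi-likelihood test in the step from P1 to P7 were 0.0674 for LSMEM2 and 0.0694 for HNRNPA0. The 3 libraries of one age lay wholly above or below those of the other for 13.3% of the genes between P1 and P3 (16% of all rows), for 22.2% between P3 and P7 (22.9%) and for 28.9% between P1 and P7 (30.6%).

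Between P1 and P28, 6 of the 45 genes differed (13.3%, background 15.3%). LSMEM2, DHX38, PABPC4 and HNRNPA0 were higher at P28 (4 genes, background 7.38%), and LSM10 and RBMS3 were lower (2 genes, background 7.93%). The median log2 fold change was 0.10, against 0.0035 over all rows, and 26 of the 45 values were positive. For 37 genes (82.2%) the log2 fold change was smaller than 0.5 in either direction, against 67.4% of all rows. The libraries of P1 and P28 did not overlap for 57.8% of the genes, 17 higher and 9 lower at P28, against 44.4% of all rows. Without library 5 of P3, 12 genes were called, 7 higher and 5 lower (background 25.6%), and without library 5 of P1, 3 were called (background 9.58%). The count was 4 without library 4 (background 12%) or 6 (8.42%) of P1 or library 4 of P28 (9.41%). When only the P1 and P28 libraries were fitted, 11 of 44 genes were called, 6 higher and 5 lower (background 22.5%), which were the 6 above with PRPF39, RBM6, SF3B3, SNRPD1 and SRSF12. DESeq2 called 7 genes (background 19.7%).

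Between P7 and P28, 8 genes differed (17.8%, background 18.8%), in a comparison that shares its P28 libraries with the one above. LSMEM2, PABPC4, DHX38, RBM6 and RBM5 were higher at P28 (5 genes, background 8.34%), and SRSF12, SNRPD1 and RBMS3 were lower (3 genes, background 10.5%). The libraries did not overlap for 42.2% of the genes, 12 higher and 7 lower at P28, against 47% of all rows. Without library 5 of P3, 11 genes were called (background 28.3%). The count was 3 without library 6 of P28 (background 12%), 4 without library 4 of P28 (13.3%) or without library 4 (11.7%), 5 (10.6%) or 6 (12.9%) of P7, and 5 without library 5 of P28 (12.2%).

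The study called genes at an unadjusted p of at most 0.05 and an absolute log2 fold change over 0.5. It used DESeq2 and Linnorm and compared P1 with later ages. Here only the cut-offs are the study's, applied to the p values of edgeR's quasi-likelihood test. By these thresholds 2 of the 45 genes were called between P1 and P3 (DHX34 and CELF4, background 10.6%), 2 between P3 and P7 (SRSF12 and PABPC4, 13%), 3 between P1 and P7 (SRSF12, LSMEM2 and CELF4, 11.7%), 6 between P7 and P28 (25.1%) and 7 between P1 and P28 (23.1%). In each comparison the share of the 45 genes was below that of all rows. CELF4 reached 10 counts in library 4 of P3 (12 counts) and libraries 5 and 6 of P7 (13 each) only, against 1 to 3 counts at P1. It passed the count minimum through the ages at which it was higher, so its calls from P1 to P3 and from P1 to P7 support nothing.

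**Figure D3:**
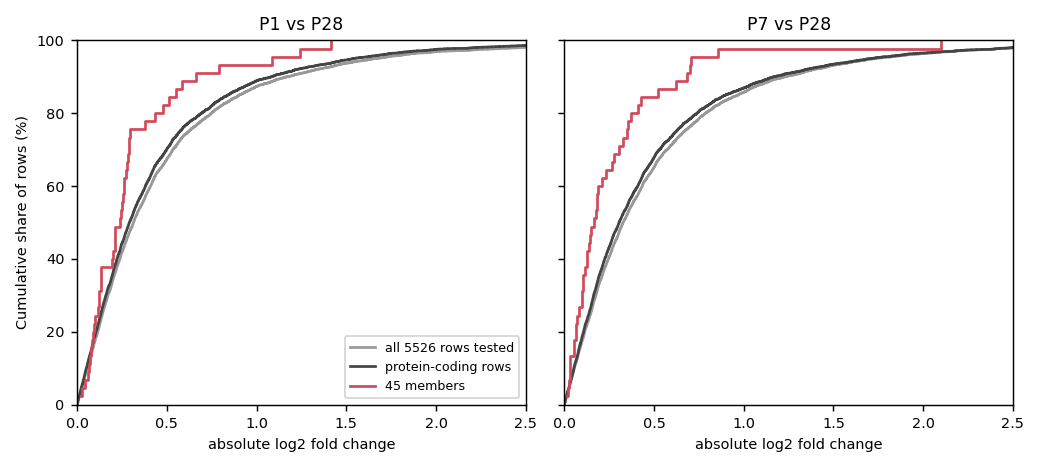
Cumulative share of rows (y axis, %) whose absolute log2 fold change is at most the value on the x axis, between P1 and P28 (left) and between P7 and P28 (right), for the 45 genes, the 4591 protein-coding rows tested and all 5526 rows tested. The red curve of the 45 genes lies above the others over most of the range, and at 0.5 it reaches 82.2% between P1 and P28, against 67.4% for all rows.

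**Figure D4:**
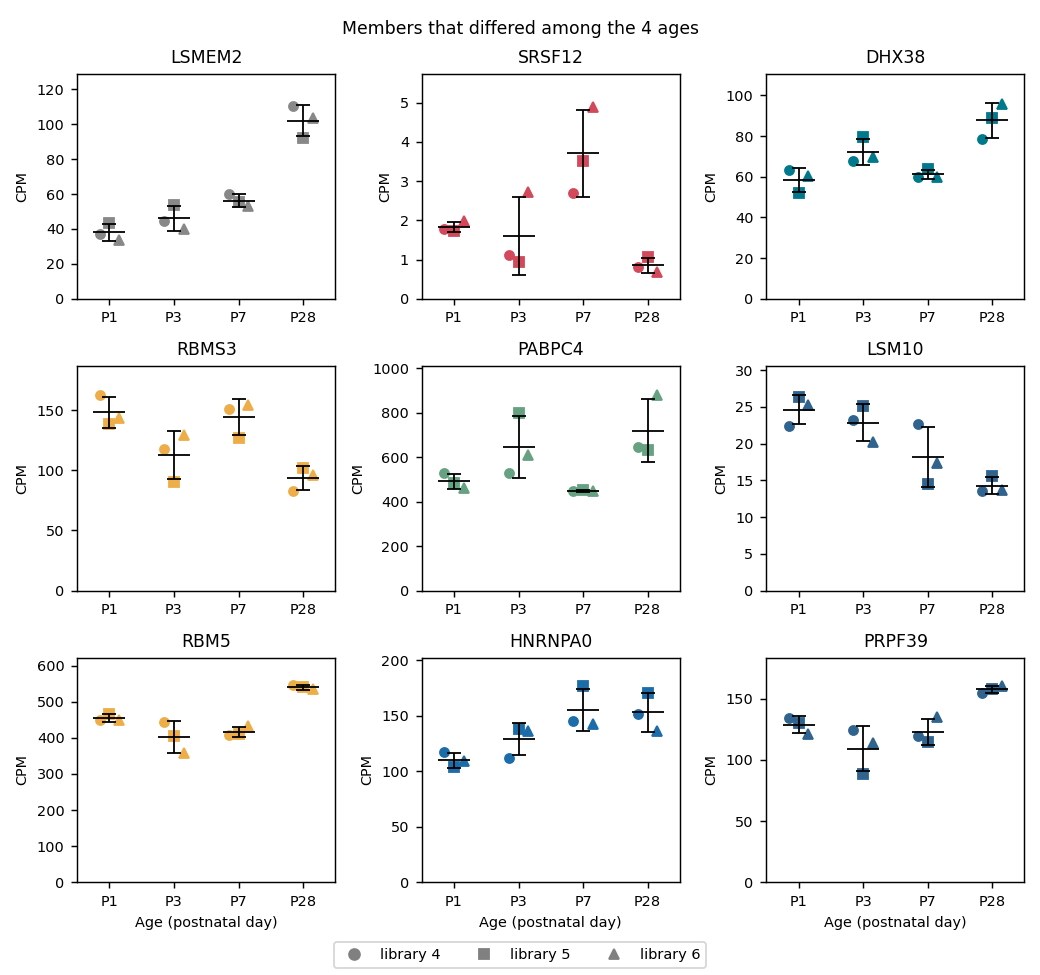
Level (CPM, y axis from 0) of the 9 genes that differed among the 4 ages, by age (x axis, 3 libraries each), with the mean and SD as bars and the shape giving the column number. LSMEM2 lies between 92.3 and 110.1 CPM at P28 and at most at 60.1 CPM before, and SRSF12 reaches at most 4.90 CPM.

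Of the hnRNPs, which coat nascent transcripts and can promote or block splice sites, 1 of 4 was called between P1 and P28 (background 15.3%). All 4 had a positive log2 fold change, from 0.09 to 0.48. HNRNPA0, which binds AU-rich stretches of mRNA, was at 117, 104 and 109.5 CPM in the P1 libraries, 112, 138 and 137 CPM at P3, 146, 177 and 143 CPM at P7, and 152, 171 and 136 CPM at P28. The P28 libraries lay above those of P1 and overlapped those of P7, and by P7 all 3 libraries were already above P1. From P1 to P28 it rose by 0.48 on the log2 scale (SE 0.14, 1.39-fold, adjusted p = 0.0321 in edgeR's quasi-likelihood test). This call was lost without library 4, 5 or 6 of P1 or library 4 or 5 of P28, with an adjusted p of at most 0.134, and without the count filter (0.0535). Its span lies inside the annotated span of KLHL3, a gene with a mean of 51.9 CPM, and reads of overlapping genes may not have been kept apart.

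HNRNPH1, which binds runs of G and was the hnRNP with the highest CPM, held 1102, 1120.3 and 1193 CPM at P1 and 1433, 1418 and 1272 CPM at P28. At P3 the values were 1225, 747 and 1169.7 CPM, the low one in library 5, and at P7 they were 1184, 1259.7 and 1308 CPM. The P28 libraries were above those of P1, but the log2 fold change of 0.27 (95% confidence interval -0.08 to 0.62) did not pass (edgeR adjusted p = 0.272). Without library 5 of P3, the value was 0.27 and the adjusted p 0.0425. HNRNPR ranged from 265 to 439 CPM and HNRNPUL1 from 439 to 633 CPM over the 12 libraries, and neither passed in edgeR's fit of all 12 libraries.

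SR proteins carry a domain rich in arginine and serine and mostly favor the use of nearby exons. Of 4 measured, 1 (SRSF12) was called among the ages (background 21.4%). SRSF12, a relative of SRSF10 that can counteract other SR proteins, was at 1.79, 1.73 and 1.98 CPM at P1, at 1.11, 0.945 and 2.73 CPM at P3, at 2.69, 3.52 and 4.90 CPM at P7 and at 0.802, 1.07 and 0.690 CPM at P28. Every P28 library was below every P7 library, with 7 to 60 counts in a library behind these values. From P7 to P28 it fell by 2.10 on the log2 scale (SE 0.42, to 0.233 of the P7 level, adjusted p = 0.00483 in edgeR's test), which was called in all 12 fits that left out a library. Between P1 and P28 the libraries did not overlap either, but the log2 fold change of -1.08 (SE 0.43) did not pass (edgeR adjusted p = 0.11), and without library 6 of P3 the adjusted p was 0.0463.

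SRSF10, which represses splicing in its dephosphorylated form, held 511, 508 and 468 CPM at P1 and 524, 546 and 499 CPM at P28, groups that overlapped. At P3 its 3 libraries spread from 249 CPM in library 5 to 521 CPM in library 4, and at P7 from 469 to 542 CPM. The log2 fold change from P1 to P28 was 0.08 (95% confidence interval -0.35 to 0.51). SRSF4, a large SR protein, was at 319 to 403 CPM in the 12 libraries, with a log2 fold change of 0.13 (95% confidence interval -0.09 to 0.36). The SRSF4 row is uncertain, because its identifier carries the symbol MECR in the gene name table and its span overlaps that of EPB41 by 138159 bases. SRSF11 ranged from 157 to 270.5 CPM, the low value again in library 5 of P3.

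CELF1, which binds GU-rich sequence and is known from postnatal splicing changes in the mouse heart, was among the flattest genes. Its libraries held 448, 388 and 415 CPM at P1, 412, 358 and 401 CPM at P3, 403, 412 and 402 CPM at P7, and 451, 410.4 and 412 CPM at P28. All 4 ages overlapped, and the log2 fold change from P1 to P28 was 0.03 (95% confidence interval -0.20 to 0.25). The annotated span of PSMC3 covers 121251 of the 121261 bases of CELF1, and its row had a mean of 566 CPM. CELF4 had a log2 fold change of 1.24 (SE 0.80) on 1 to 13 counts and did not pass.

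Of the 8 RBM genes, 1 was called between P1 and P28 (background 15.3%) and 3 between P7 and P28 (background 18.8%). RBMS3, which binds single-stranded nucleic acid, was at 163, 139 and 143 CPM at P1, at 118, 90.7 and 129 CPM at P3, at 151, 127 and 155 CPM at P7 and at 82.6, 102 and 96.3 CPM at P28. The P28 libraries were below all those of P1 and P7 and overlapped those of P3. It fell by 0.66 on the log2 scale from P1 to P28 (SE 0.15, to 0.631 of the P1 level, edgeR adjusted p = 0.0117) and by 0.62 from P7 to P28 (SE 0.15, adjusted p = 0.0134). The first of these calls was made in all 12 fits that left out a library and the second in 11, with an adjusted p of 0.0561 without library 4 of P28. The fibroblast genes TCF21 and FBLN2 fell by 1.05 and 0.85 on the log2 scale from P1 to P28 (edgeR adjusted p = 0.000678 and 0.00684). The part of the tissue's cell makeup in the RBMS3 result was not tested.

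RBM5 and RBM6 encode related splicing regulators and are neighbours on chromosome 13, where 10167 bases separate RBM6 (chr13:32444950-32569816) from RBM5 (chr13:32579983-32612712). RBM5 was at 449.9, 467 and 449 CPM at P1, at 444, 406 and 357 CPM at P3, at 407, 411 and 433 CPM at P7 and at 546, 539.8 and 534 CPM at P28. All 3 P28 libraries were above the other 9, with an SD of 6.12 CPM among them. It rose by 0.37 from P7 to P28 (SE 0.11, 1.29-fold, adjusted p = 0.0275 in edgeR's test), and the log2 fold change of 0.25 from P1 (SE 0.11, adjusted p = 0.134) did not pass. RBM6, which falls outside the rule for named genes and was chosen after its values were seen, held 426, 426 and 409.6 CPM at P1, 483, 344 and 359 CPM at P3, 372, 334 and 411 CPM at P7, and 508, 498 and 499 CPM at P28. Here too the 3 P28 libraries were the highest of the 12. The rise from P7 to P28 was 0.43 (SE 0.14, 1.35-fold, edgeR adjusted p = 0.043), and the F test over the 4 ages did not pass (adjusted p = 0.107). In fits that left out a library, the call from P7 to P28 was kept in 6 of 12 for RBM5 and in 4 of 12 for RBM6. It was lost for both without any one library of P7 or P28, and for RBM6 also without library 5 or 6 of P1, with adjusted p values up to 0.103 for RBM5 and 0.179 for RBM6. Both calls were also lost without the count filter (0.0721 and 0.0662).

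The other 5 RBM genes did not pass in edgeR's fit of all 12 libraries, and RBM22 was called from P7 to P28 without library 5 of P3. RBM14, a paraspeckle protein, ranged from 328 to 442 CPM, RBM15B, an adaptor of the mRNA methylation complex, from 67.0 to 102 CPM, and RBM22, which touches the pre-mRNA in the active spliceosome, from 70.0 to 93.1 CPM. RBM18 ranged from 74.2 to 127 CPM and RBM42 from 87.6 to 120.1 CPM. The span of RBM42 lies inside the annotated span of TMEM147, which had a mean of 172 CPM. The P28 libraries of RBM15B lay above all those of P1 and P7, with a log2 fold change of 0.31 from P7 that did not pass (edgeR adjusted p = 0.133).

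Of 9 RNA helicases, 1 was called between P1 and P28 (background 15.3%), and the same gene between P7 and P28 (18.8%) and among the 4 ages (21.4%). DHX38, the homolog of yeast Prp16, remodels the spliceosome between the 2 chemical steps of splicing. Its libraries held 63.4, 51.9 and 60.4 CPM at P1, 67.8, 79.4 and 69.5 CPM at P3, 59.9, 63.7 and 59.7 CPM at P7, and 78.6, 88.7 and 95.9 CPM at P28. Those of P28 were above those of P1 and P7, and the lowest of them, at 78.6 CPM, was just under the highest of P3. It rose by 0.58 on the log2 scale from P1 to P28 (SE 0.13, 49.8% higher, edgeR adjusted p = 0.0101) and by 0.52 from P7 (SE 0.13, 43.5% higher, adjusted p = 0.0146). The first call was lost without library 5 of P1 (adjusted p = 0.0519), and the second without library 4 or 6 of P7 or library 6 of P28 (at most 0.0633).

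None of the other helicases passed in edgeR's fit of all 12 libraries. DESeq2 called DHX30 among the 4 ages and from P3 to P7, and DDX28 from P7 to P28. In edgeR, DHX34 was called among the 4 ages without library 4 of P3, and without library 5 of P3 DDX19B was called from P1 to P28 and DDX28 from P7 to P28. DHX36, which unwinds G-quadruplexes and was the helicase with the highest mean CPM over the 12 libraries (DHX30 was higher at P3), ranged from 146 to 243 CPM, and its P28 libraries, at 198, 201 and 194 CPM, were all below the lowest P1 library at 206 CPM. The log2 fold change was -0.11 (95% confidence interval -0.46 to 0.23). DHX34, which acts in nonsense-mediated decay, was at 136 CPM in library 5 of P3 and between 43.3 and 80.5 CPM in the other 11 libraries. DHX30, of mitochondrial RNA, ranged from 167 to 230.5 CPM, DDX19B, of mRNA export, from 138 to 186 CPM, and DDX41 from 69.3 to 97.5 CPM. DDX49 ranged from 36.2 to 53.2 CPM, DDX31 from 20.3 to 41.5 CPM and DDX28 from 17.5 to 26.9 CPM. Between P1 and P28, the libraries of 7 of the 9 helicases did not overlap, 5 higher and 2 lower at P28, where 44.4% of all rows did not.

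The genes with SF3, SNRP, PRPF and LSM symbols, LSMEM2 apart, numbered 16 and encode proteins of snRNPs and the spliceosome, except LSM14A of processing bodies, which the symbol placed there. Of the 16, 1 was called between P1 and P28 (background 15.3%) and 1 between P7 and P28 (background 18.8%), both lower at P28. LSM10, a subunit of the U7 snRNP that processes the ends of histone mRNAs, was at 22.4, 26.3 and 25.2 CPM at P1, at 23.3, 25.2 and 20.2 CPM at P3, at 22.6, 14.6 and 17.4 CPM at P7 and at 13.5, 15.6 and 13.7 CPM at P28. The P28 libraries were below all those of P1 and P3 and overlapped those of P7. The level fell by 0.79 on the log2 scale from P1 to P28 (SE 0.18, to 0.579 of the P1 level, edgeR adjusted p = 0.0122), a call made in all 12 fits that left out a library. Beside it, the 10 cell cycle rows measured (CDC25C with 2 of them) had a summed level of 305 to 600 CPM at P1 and P3, 949 to 1201 CPM at P7 and 178 to 338 CPM at P28. From P1 to P28 all 10 had a negative log2 fold change, with a median of -0.86, and 3 were called lower (background 7.93%). All 10 fell from P7 to P28, while the LSM10 values of P7 and P28 gave a log2 fold change of -0.35 (SE 0.18, edgeR adjusted p = 0.202). The part of the cell cycle shift in the LSM10 result was not tested. LSM10 lies inside the annotated span of OSCP1, which had a mean of 24.1 CPM.

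SNRPD1 and SNRPD2 encode 2 proteins of the Sm ring. SNRPD1, chosen after its values were seen, held 65.5, 62.5 and 62.9 CPM at P1, 67.2, 36.6 and 76.7 CPM at P3, 75.8, 69.8 and 73.2 CPM at P7 and 47.8, 50.0 and 36.1 CPM at P28. Every P28 library was below every one of P1 and P7. From P7 to P28 it fell by 0.71 on the log2 scale (SE 0.22, to 0.612 of the P7 level, edgeR adjusted p = 0.0415), a call kept in 4 of the 12 fits that left out a library and lost without library 5 or 6 of P1 or any one library of P7 or P28 (adjusted p up to 0.150). SNRPD2 ranged from 116 to 183 CPM, and its log2 fold change from P7 to P28 was 0.07 (SE 0.16).

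PRPF39, a component associated with the U1 snRNP, held 134, 130.4 and 121 CPM at P1, 124, 88.7 and 114 CPM at P3, 119, 115 and 135 CPM at P7, and 155, 158 and 160.2 CPM at P28. All 3 P28 libraries were above the other 9, with an adjusted p of 0.0496 in edgeR's F test over the 4 ages (0.0811 without the count filter). Neither the log2 fold change of 0.29 from P1 (SE 0.13, adjusted p = 0.154) nor that of 0.36 from P7 (SE 0.13, adjusted p = 0.0768) passed, and without library 5 of P3 the first had an adjusted p of 0.0286. The second was called by DESeq2 (adjusted p = 0.0475), when only these ages were fitted, and in edgeR without library 4 (0.0462) or 5 (0.0103) of P3.

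LSM14A, a protein of processing bodies and the gene of this group with the highest CPM in the mean over the 12 libraries (499 against 483 for SF3B3, which had the higher mean at P1, P3 and P7), was at 564, 551 and 524 CPM at P1, 541, 345 and 483 CPM at P3, 460.4, 433 and 479 CPM at P7 and 568, 534 and 512 CPM at P28. Its P7 libraries were below all those of P1 and P28, and no comparison passed in edgeR. SF3B3, of the U2 snRNP, ran from 527 to 574 CPM at P1 and from 375 to 456 CPM at P28 without overlap. The log2 fold change of -0.38 (SE 0.13, edgeR adjusted p = 0.0741) did not pass, while DESeq2 gave an adjusted p of 0.0465. In edgeR, SF3B3 was called among the 4 ages and from P1 to P28 without library 5 of P3. Its partners in the U2 snRNP, SF3B2 (269 to 429.5 CPM), SF3A3 (114 to 162 CPM) and SNRPA1 (62.1 to 152 CPM), did not pass in edgeR's fit of all 12 libraries. SF3B2 was called among the 4 ages without library 4 of P3 and from P1 to P28 without library 5 of P3. In the fit of all libraries the same held for SNRPA of the U1 snRNP (44.7 to 65.4 CPM), which was called from P7 to P28 when only these ages were fitted, for PRPF4 (62.7 to 96.0 CPM) and PRPF31 (57.5 to 87.8 CPM) of the particle that joins U4, U5 and U6, and for LSM3 (24.1 to 66.6 CPM) and LSM7 (19.5 to 29.8 CPM) of the Sm-like rings. PRPF19, a ubiquitin ligase of the spliceosome, ranged from 91.6 to 123 CPM and PRPF38A from 37.4 to 56.7 CPM.

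PABPC4, the poly(A)-binding protein measured and the gene with the highest mean level per kilobase over the 12 libraries (HNRNPH1 was higher at P1 and P7), was at 529, 483 and 463 CPM at P1, 528, 797 and 612 CPM at P3, 447, 451 and 446 CPM at P7, and 646, 632 and 881 CPM at P28. The P28 libraries were above all those of P1 and P7 and overlapped those of P3, whose library 5 was at 797 CPM. It rose by 0.55 on the log2 scale from P1 to P28 (SE 0.16, 1.46-fold, edgeR adjusted p = 0.0401) and by 0.68 from P7 (SE 0.16, 1.61-fold, adjusted p = 0.0129). The call from P1 was kept in 4 of the 12 fits that left out a library. Those were the fits without library 4, 5 or 6 of P3 or library 5 of P28. Without library 6 of P28 the log2 fold change was 0.38 with an adjusted p of 0.170. This call was also lost with the library number as a block in edgeR's fit (adjusted p = 0.0586). The call from P7 was lost without library 5 of P7 or library 6 of P28 (adjusted p at most 0.0589).

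**Figure D5:**
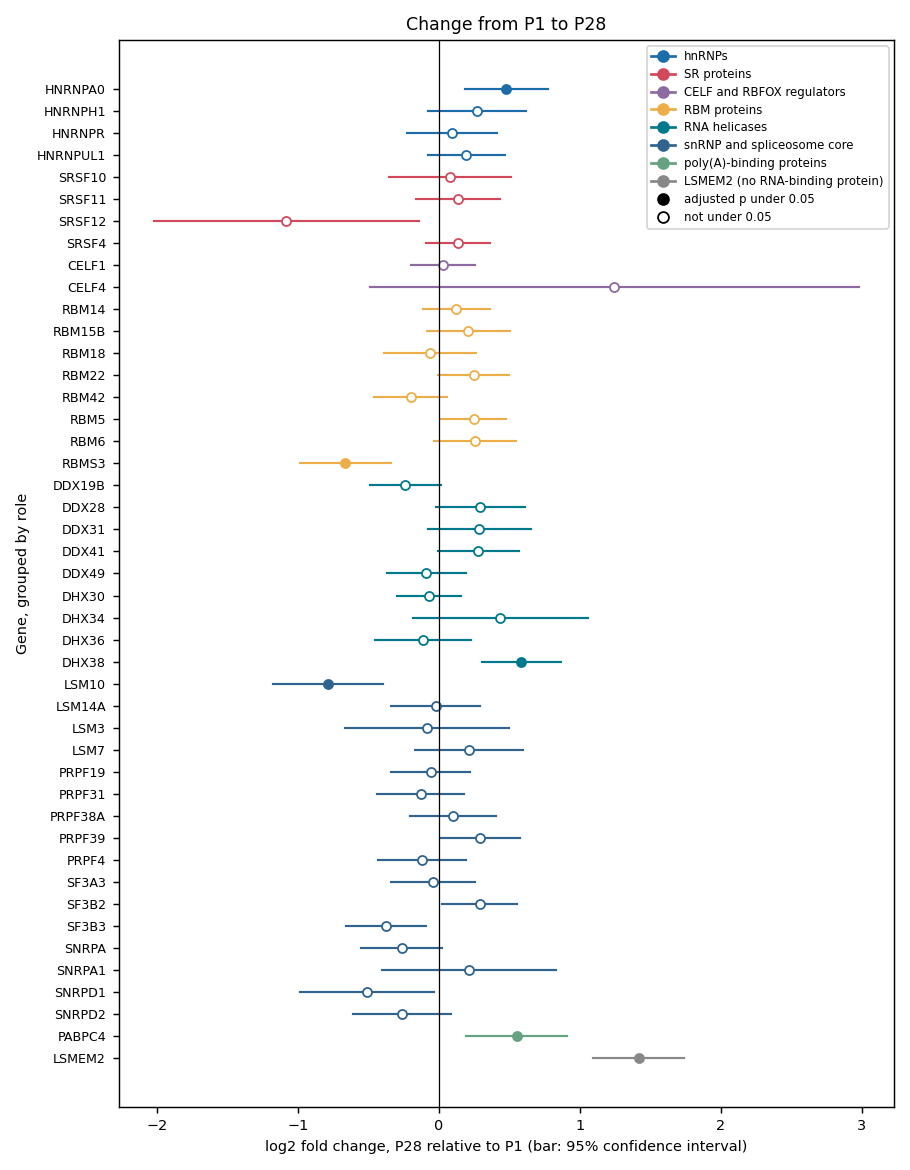
log2 fold change from P1 to P28 (x axis, positive where P28 was higher) of the 45 genes, coloured by role, with 95% confidence intervals as bars and filled points at an adjusted p under 0.05. The filled points are HNRNPA0, RBMS3, DHX38, LSM10, PABPC4 and LSMEM2, and most of the other intervals include 0.

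LSMEM2, the membrane protein taken in by its symbol, had the smallest adjusted p among the 45 genes in edgeR's F test (0.000372). It was at 37.3, 43.4 and 33.8 CPM at P1, 44.5, 53.5 and 39.9 CPM at P3, 60.1, 55.5 and 53.1 CPM at P7, and 110.1, 92.3 and 104 CPM at P28. All P28 libraries were above the other 9, and those of P7 above those of P1. From P1 to P28 it rose by 1.42 on the log2 scale (SE 0.15, 2.67-fold, edgeR adjusted p = 0.00023), and from P7 by 0.86 (SE 0.15, 1.81-fold, adjusted p = 0.00212). Its gene (chr13:32753199-32757036) lies 140487 bases from RBM5. Positions are given as in the gene table. The labels name the Sscrofa10.2 build, while the spans of all 45 genes overlap those of the same symbols in RefSeq's Sscrofa11.1.

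In 4 further rows the table gave no symbol, and a gene name table assigned their identifiers to HNRNPL, HNRNPUL2, RBM27 and LSM4. They are not counted among the 45 genes. LSM4, a subunit of the U6 snRNP ring, held 57.3, 65.8 and 63.2 CPM at P1, 62.5, 54.2 and 77.1 CPM at P3, 82.4, 92.2 and 90.1 CPM at P7, and 44.5, 50.8 and 44.3 CPM at P28. All P7 libraries were above the other 9, and all P28 libraries below the others. It fell by 0.92 on the log2 scale from P7 to P28 (SE 0.14, to 0.527 of the P7 level, edgeR adjusted p = 0.00142), and the log2 fold change of -0.42 from P1 (SE 0.14, adjusted p = 0.0685) did not pass. RBM27 ranged from 140.3 to 295 CPM, HNRNPL, which binds CA repeats, from 430.4 to 581 CPM, and HNRNPUL2 from 207 to 305 CPM. None of these passed in edgeR's fit of all 12 libraries. The P28 libraries of RBM27, at 295, 259 and 246 CPM, were above its other 9, with an adjusted p of 0.0543 in edgeR's F test.

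Other splicing and RNA-binding genes lie outside the prefixes. Of 48 such genes measured from a separate list, 5 (10.4%) were called between P1 and P28, where 15.3% of all rows were, and their median log2 fold change was 0.13. FXR1, an RNA-binding protein of muscle, was at 759 ± 63.3 CPM at P1 and 1121 ± 28.8 CPM at P28 (mean ± SD, n = 3), a rise of 0.56 on the log2 scale (SE 0.15, edgeR adjusted p = 0.022). CLK4, a kinase of SR proteins, rose by 0.53 (SE 0.14, adjusted p = 0.0244), SART1, of the spliceosome's tri-snRNP, by 0.76 (SE 0.23, adjusted p = 0.0439), and PNN, of nuclear speckles, by 0.51 (SE 0.16, adjusted p = 0.0443). IGF2BP2, an mRNA-binding protein of fetal tissue, fell by 0.59 (SE 0.15, adjusted p = 0.0217), from 141 ± 29.1 CPM to 93.2 ± 0.819 CPM. Between P7 and P28, 5 of the 48 (10.4%) were called, 3 higher and 2 lower, where 18.8% of all rows were. DESeq2 called 8 of the 48 between P1 and P28 (its background 19.7%) and 7 between P7 and P28 (23.4%). No gene of this list was called by edgeR's test between P1 and P3, between P3 and P7 or between P1 and P7. At an unadjusted p under 0.05 lay 6 of the 48 (12.5%, against 15.2% of all rows), 7 (14.6%, against 18.9%) and 4 (8.33%, against 16.1%). Between P1 and P28 these were 17 (35.4%, against 30.7%), and between P7 and P28 they were 12 (25%, against 33%). The libraries of P1 and P28 did not overlap for 52.1% of the 48, against 44.4% of all rows. DESeq2 called 1 of the 48 between P1 and P3 (RAVER2, its background 2.21%), 0 between P3 and P7 (7%) and 0 between P1 and P7 (6.59%).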

How the data were processed

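The deposited gene table holds read counts per gene, which the authors did not normalize. The labels name STAR 2.7.9a, MultiQC 1.11 and the Sscrofa10.2 build, and the paper's methods name ribosomal RNA depletion, a stranded total RNA kit and 150-base paired-end reads, while the labels name another directional kit. The counter, its strand setting and its treatment of overlapping genes are not given in the sources used here. Spans of other genes also overlapped members for which this is not stated above. Examples are HNRNPH1 (10377 of 12807 bases, RUFY1) and DHX36 (46775 of 51523 bases, ARHGEF26). The last line of the table is cut off and was left out. Libraries were grouped by the age in their column names.

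TMM-scaled CPM were computed from the counts in R 4.3.3. All 4 ages of the 12 cd libraries entered 1 fit of edgeR 4.0.16's quasi-likelihood test, over the 5526 rows that reached 10 counts in 3 libraries or more, and p-values were adjusted over all of them by the Benjamini-Hochberg method. A call is an adjusted p under 0.05. Totals of 8887176 to 14883849 counts per library limit the precision of low genes such as CELF4. The test was tried on simulated data, where it missed most changes of 0.5 on the log2 scale between P1 and P28 and called most changes of 1. A gene that did not pass may thus still differ by 0.5. The replicates of an age differed by more than sampling noise.

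The members, role groups and gene lists were chosen with earlier results of these data known. By rule, genes were named where they passed the F test or the P1 to P28 contrast, or had the highest CPM of their role group. The rule also took genes known from heart or back-splicing and the 5 smallest p of the other list. Results given for other genes, such as SF3B3 and RBM15B, fall outside it. Alternatives covered DESeq2 1.42.0 (its size factors and its test), the count filter, the replicate number as a block, library sizes without Metazoa_SRP, the study's thresholds, only the 2 ages compared, each library left out, and, added after seeing the data, the genes without LSMEM2. Plots were drawn with matplotlib 3.10.9. circRNA and small RNA files were not used here.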

Additional observations from a re-analysis of the deposited data

How the results depend on the processing

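The counts of called genes (9 among the 4 ages, then 0, 0, 8, 0 and 6 for P1 to P3, P3 to P7, P7 to P28, P1 to P7 and P1 to P28) stayed within 1.5 times under DESeq2's size factors, no count filter, a filter of 10 counts in all 12 libraries, library sizes without Metazoa_SRP and, in an alternative chosen after seeing the data, without LSMEM2. With DESeq2's test they were 1 from P3 to P7 (background 7%) and 2 from P1 to P7 (6.59%). With the study's thresholds (unadjusted p of at most 0.05 and an absolute log2 fold change over 0.5) they were 2 from P1 to P3 (background 10.6%), 2 from P3 to P7 (13%) and 3 from P1 to P7 (11.7%), and fitted on only the ages compared they were 2 from P1 to P7 (6.58%) and 11 from P1 to P28 (22.5%). The cause of these shifts was not tested. Leaving out each library in turn gave 1 to 12 among the 4 ages (background 13.0% to 30.9%), 0 to 0 from P1 to P3 (0.0182% to 0.291%), 0 to 1 from P3 to P7 (0.291% to 4.47%), 3 to 11 from P7 to P28 (10.6% to 28.3%), 0 to 2 from P1 to P7 (0.383% to 5.95%) and 3 to 12 from P1 to P28 (8.42% to 25.6%). Over these fits the P1 to P28 log2 fold change changed sign for CELF1 (-0.029 to 0.077; -0.029 without library 5 of P1, -0.027 without library 4 of P28) and LSM14A (-0.070 to 0.012; 0.012 without library 6 of P28), neither of them called. Without the count filter HNRNPA0, RBM5 and PRPF39 were not called among the 4 ages, RBM5 and RBM6 not from P7 to P28, and HNRNPA0 not from P1 to P28 (adjusted p = 0.0535).

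Library numbers recur at each age. Over all ages, libraries with the same number mostly did not deviate together (18 pairs, correlations -0.21 to 0.35, 5 over 0.1). Between P1 and P28 the correlations were all over 0.1, at 0.35 (number 4), 0.14 (number 5) and 0.17 (number 6). Of the 12 libraries, 5 correlated best with their own number, and the numbers were not taken to pair the libraries. With the number as a replicate block the counts were 6 (background 20.1%), 0 (0.127%), 0 (1.39%), 7 (18.3%), 0 (1.74%) and 5 (14.2%). HNRNPA0 (edgeR adjusted p = 0.0575), PRPF39 (0.0577) and RBM5 (0.0583) were then not called among the 4 ages, SNRPD1 (0.0553) not from P7 to P28 and PABPC4 (0.0586) not from P1 to P28, and no other call of the 45 genes was lost. Depth limits SRSF12 and CELF4, with at most 60 and 13 counts in a library.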
